A study of Homo sapiens with 6 samples.

Results

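AP5B1 encodes the beta subunit of AP-5, an adaptor protein complex of late endosomes and lysosomes, and it was examined here with the other AP-5 subunits AP5Z1 (zeta), AP5M1 (mu) and AP5S1 (sigma) and the partner proteins SPG11 and ZFYVE26. AP5B1 was picked because its difference between the groups was among those with the lowest p-values in these same libraries, so its difference is given as a description with no test. The other 5 genes were picked because their products bind AP5B1 or its complex. All 6 members were found among 35052 genes, and all 6 passed the low-count filter that left 12954 genes for testing.

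The libraries came from EoL-1, an established human cell line that was grown out of an eosinophilic leukaemia. ATF3/JUN double knockout cells gave 3 libraries and JUN knockout cells gave 3, so both groups carry the JUN edit and the ATF3 edit sets them apart. The labels name CRISPR/Cas9 for the ATF3 edit, while the guides and alleles were not named in the sources used here. The names of the deposited files give each library of a group its own clone code, shared by the same-numbered libraries of both groups. No label says that the libraries of a group were separate cultures, so a p-value covers only how these libraries scatter.

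AP-5 is the most recently described of the adaptor complexes. Unlike AP-1 and AP-2 it is not known to use clathrin. SPG11 (spatacsin) and ZFYVE26 (spastizin) form a stable assembly with it, and the FYVE domain of ZFYVE26 binds a phosphoinositide of endosome membranes. The assembly retrieves proteins from late endosomes to the Golgi and takes part in the renewal of lysosomes after autophagy. Loss of SPG11, ZFYVE26 or AP5Z1 causes forms of hereditary spastic paraplegia. ATF3 and JUN are transcription factors that bind DNA as dimers. Their family is also called AP-1, a name unrelated to the AP-1 adaptor.

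Depth was 26146998 to 29567970 estimated reads per library. ATF3 mRNA was at 10.2 ± 2.72 CPM (counts scaled to a common library total) in the double knockout and 14.3 ± 5.68 CPM in the JUN knockout (SD, n = 3 each). JUN mRNA was at 18.7 ± 6.21 CPM in the double knockout and 21.7 ± 7.42 CPM in the JUN knockout. The groups overlapped for both genes, and edited mRNA can persist, so these levels did not check the edits. The libraries did not sort by group. By a chi-square of their counts per gene, double knockout replicate 3 was closer to JUN knockout replicates 3 (10.8) and 2 (15.1) than to double knockout replicates 2 (25.7) and 1 (30.4), and JUN knockout replicate 1 was closer to double knockout replicates 2 (16.1) and 1 (16.6) than to JUN knockout replicates 2 (33.2) and 3 (53.0). Of 8 genes that define eosinophils, CLC, EPX and IL5RA had no reads in any library and only RNASE2 and RNASE3 had enough reads to be tested, so the label eosinophil was met in part. Among 9 markers of other blood cells only MPO, a granule enzyme of myeloid precursors, was tested.

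AP5B1 (ENSG00000254470; chromosome 11, 65775893 to 65780802, minus strand, GRCh38) was higher in each double knockout library than in any JUN knockout library. It was at 129.6, 128 and 125 CPM in the double knockout, against 84.6, 88.1 and 92.2 CPM in the JUN knockout. The groups did not overlap, and the spread within each group was small beside the gap between them. The means were 127 ± 2.25 CPM in the double knockout and 88.3 ± 3.82 CPM in the JUN knockout (SD, n = 3 each), a log2 fold change of 0.53 (SE 0.07), or 1.44-fold. In bulk RNA, a change in the number of cells that express a gene and a change in its RNA per cell cannot be told apart. The same-numbered pairs differed by 0.62, 0.54 and 0.44 in log2 CPM. Among all tested genes the groups did not overlap in 12.3%, with 6.31% higher and 5.94% lower in the double knockout. In all 3 pairs 33.2% of genes moved the same way, and 18% were higher. These shares are background only, since AP5B1 was picked on this contrast. An absolute log2 fold change larger than that of AP5B1 was found in 5.43% of tested genes.

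**Figure D1:**
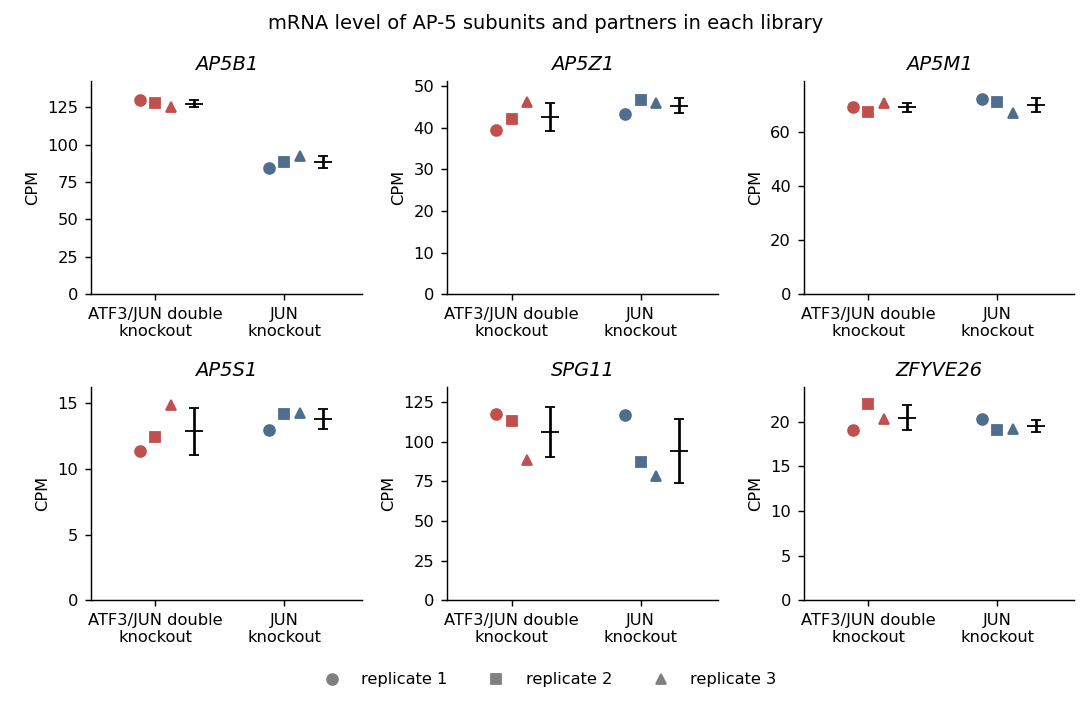
Level in CPM (vertical axes, each from 0) of AP5B1, AP5Z1, AP5M1, AP5S1, SPG11 and ZFYVE26 in the 3 ATF3/JUN double knockout libraries (left, red) and the 3 JUN knockout libraries (right, blue), with the mean and SD of each group in black. AP5B1 sits at 125 to 129.6 CPM in the double knockout against 84.6 to 92.2 CPM in the JUN knockout, while the groups overlap in the other 5 genes.

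The AP5B1 promoter is shown because ATF3 and JUN bind the motif TGAGTCA, read as TGACTCA on the other strand, and that of ZFYVE26 because it holds the same letters. AP5Z1 is shown for its copies of CACGTG, the E-box bound by regulators of lysosome genes such as TFEB. The windows run from 250 bases before to 50 after the RefSeq start (GRCh38.p14). RefSeq windows were matched for 5 of the 6 members, and SPG11 was not among them. They are chr11:65780927-65781226 on the minus strand for AP5B1, chr14:67816541-67816840 on the minus strand for ZFYVE26, and chr7:4775373-4775672 on the plus strand for AP5Z1. Each is written 5′ to 3′, and capitals mark the letters of the motifs searched.
AP5B1: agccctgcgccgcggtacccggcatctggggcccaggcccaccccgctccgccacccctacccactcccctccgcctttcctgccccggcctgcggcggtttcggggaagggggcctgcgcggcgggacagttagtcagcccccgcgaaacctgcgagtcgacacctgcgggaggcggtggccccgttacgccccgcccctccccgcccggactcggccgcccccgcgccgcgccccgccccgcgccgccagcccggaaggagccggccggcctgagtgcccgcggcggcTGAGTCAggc
ZFYVE26: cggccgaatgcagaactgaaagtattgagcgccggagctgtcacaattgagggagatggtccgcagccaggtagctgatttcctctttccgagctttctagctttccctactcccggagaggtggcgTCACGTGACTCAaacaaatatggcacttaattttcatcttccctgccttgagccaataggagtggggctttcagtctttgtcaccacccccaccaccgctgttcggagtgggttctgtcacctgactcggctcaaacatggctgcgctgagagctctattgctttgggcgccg
AP5Z1: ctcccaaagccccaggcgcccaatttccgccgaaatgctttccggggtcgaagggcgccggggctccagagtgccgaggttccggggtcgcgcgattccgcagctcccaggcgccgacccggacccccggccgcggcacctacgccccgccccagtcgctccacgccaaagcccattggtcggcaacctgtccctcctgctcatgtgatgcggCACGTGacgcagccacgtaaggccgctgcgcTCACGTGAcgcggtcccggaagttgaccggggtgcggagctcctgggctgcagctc

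The AP5B1 window held TGAGTCA once, with its first base at position 41 after the RefSeq start. The GENCODE start of AP5B1 lies 174 bases downstream of the RefSeq start, and the motif lies 128 to 134 bases upstream of it. The ZFYVE26 window held TGACTCA once, with its first base 118 bases before the start, overlapping the end of a TCACGTGA motif that begins 123 bases before it. Of 35116 RefSeq windows of 300 bases, 4.95% held TGAGTCA on either strand. AP5Z1 held 2 copies of CACGTG, with first bases 37 and 5 bases before the start, and the second copy lies inside TCACGTGA. CACGTG was in 7.26% of windows and TCACGTGA, which contains it, in 0.98%. No member held TGACGTCA, the CRE motif (1.85% of windows), or TGATGCAA, read TTGCATCA on the other strand (0.866%), and AP5M1 and AP5S1 held none of the 5 motifs. These are matches of letters and show no binding.

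None of the 5 partners of AP5B1 passed the test. None had groups that did not overlap, beside 12.3% of all tested genes, a share at which 0 of 5 is no result. The test was edgeR's quasi-likelihood test with Benjamini-Hochberg adjustment over all 12954 tested genes at 0.05. It called 0% of genes. Before adjustment 753 genes (5.81%) had a p under 0.05. None of the 5 partners was among them, which at that share is no result either. With the same-numbered libraries paired, edgeR again called 0 genes, and 9.79% had an unadjusted p under 0.05. DESeq2 called 55 genes (0.369% of those it gave an adjusted p) and limma-voom 4 (0.0309%), with no AP-5 partner among them. The partners' median log2 fold change was −0.02, with 2 above 0 and 3 below, beside 0.003 over all tested genes.

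AP5Z1, the zeta subunit and the large chain that joins AP5B1 in the core (ENSG00000242802; chromosome 7, 4775615 to 4794395, plus strand), was at 39.4, 42.1 and 46.2 CPM in the double knockout, against 43.4, 46.7 and 46.0 CPM in the JUN knockout. The groups overlapped, with double knockout replicate 3 among the JUN knockout values. The log2 fold change was −0.09 (SE 0.09, 95% interval −0.30 to 0.12, edgeR adjusted p = 0.957).

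AP5M1, the medium chain (ENSG00000053770; chromosome 14, 57268909 to 57298742, plus strand), was at 69.2, 67.3 and 70.8 CPM in the double knockout, against 72.2, 71.0 and 67.0 CPM in the JUN knockout. All values lay close together. Its log2 fold change was −0.02 (SE 0.07, 95% interval −0.19 to 0.15, edgeR adjusted p = 0.986). Its SE is about that of AP5B1, so its difference between the groups was measured as closely.

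AP5S1, the small chain (ENSG00000125843; chromosome 20, 3820524 to 3828837, plus strand), was at 11.3, 12.5 and 14.8 CPM in the double knockout, against 12.9, 14.2 and 14.2 CPM in the JUN knockout. The double knockout libraries held the lowest and the highest value. The fitted log2 fold change was −0.10 (SE 0.13, 95% interval −0.41 to 0.22, edgeR adjusted p = 0.97).

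SPG11 (ENSG00000104133; chromosome 15, 44562696 to 44663678, minus strand), the large partner thought to act as the scaffold of the assembly, was at 117, 113 and 88.3 CPM in the double knockout, against 117, 87.3 and 78.2 CPM in the JUN knockout. Double knockout replicates 1 and 2 and JUN knockout replicate 1 were high and the other 3 libraries low, the split across the groups described above, whose part in this result was not tested. It was the most variable member within groups. The log2 fold change was 0.18 (SE 0.18, 95% interval −0.24 to 0.59, edgeR adjusted p = 0.962). The pairs differed by 0.01, 0.38 and 0.17 in log2 CPM, so SPG11 was the only partner higher in all 3 pairs, as were 18% of tested genes.

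ZFYVE26 (ENSG00000072121; chromosome 14, 67727374 to 67816590, minus strand), which brings the assembly to endosome membranes, was at 19.1, 21.9 and 20.3 CPM in the double knockout, against 20.3, 19.1 and 19.2 CPM in the JUN knockout. The groups overlapped. The log2 fold change was 0.07 (SE 0.10, 95% interval −0.17 to 0.30, edgeR adjusted p = 0.974).

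The partners' CPM summed to 256, 257 and 240.5 in the double knockout, against 266, 238 and 225 in the JUN knockout, and these sums overlapped. In log2 CPM, AP5B1 stood 1.80, 1.72 and 1.69 above the mean of its partners in the double knockout and 1.10, 1.21 and 1.33 above it in the JUN knockout. That gap was wider in every double knockout library, which follows from the choice of AP5B1.

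Levels between genes were compared as TPM, which is scaled for transcript length. Over transcripts annotated as protein coding, AP5B1 was the most abundant member in the double knockout at 24.3 ± 1.18 TPM, followed by SPG11 at 15.4 ± 1.51, AP5M1 at 12.7 ± 1.13, AP5S1 at 5.51 ± 0.384, AP5Z1 at 1.87 ± 0.187 and ZFYVE26 at 1.70 ± 0.168 TPM (SD, n = 3). The JUN knockout kept this order of means, at 16.7 ± 0.472, 14.4 ± 2.67, 12.2 ± 0.959, 5.85 ± 0.31, 1.76 ± 0.153 and 1.54 ± 0.165 TPM. AP5B1 and SPG11 overlapped in the JUN knockout and not in the double knockout, while SPG11 and AP5M1, and likewise AP5Z1 and ZFYVE26, overlapped in both groups. AP5B1 made up 56.7%, 54.3% and 53.4% of the coding TPM of the AP-5 subunits in the double knockout and 46.6%, 43.6% and 47.0% in the JUN knockout. The higher share in the double knockout follows from the choice of AP5B1, and its lack of overlap with SPG11 there rests on the same AP5B1 values. Over all annotated transcripts the shares of AP5B1 were lower, at 34.7%, 34.6% and 32.7% in the double knockout and 24.1%, 24.9% and 26.1% in the JUN knockout. On that scale AP5B1 was not the most abundant member in the double knockout, where SPG11 averaged 30.6 ± 5.29 TPM and AP5M1 26.03 ± 1.46 TPM (SD, n = 3). In the JUN knockout AP5B1 averaged 16.7 ± 0.472 TPM on that scale. This was below SPG11 at 30.2 ± 8.62, AP5M1 at 24.9 ± 3.28 and AP5Z1 at 19.4 ± 1.30 TPM (SD, n = 3).

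**Figure D2:**
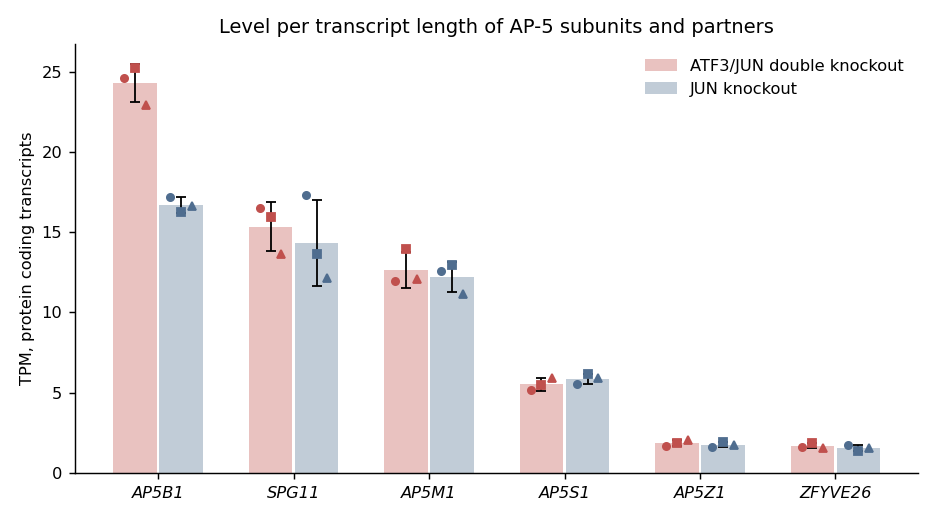
TPM summed over protein coding transcripts (vertical axis) for AP5B1, SPG11, AP5M1, AP5S1, AP5Z1 and ZFYVE26 in the ATF3/JUN double knockout (red) and the JUN knockout (blue). Bars are means, error bars SD and points single libraries, with circles, squares and triangles for replicates 1, 2 and 3. AP5B1 stands at 24.3 TPM in the double knockout and 16.7 TPM in the JUN knockout, and AP5Z1 and ZFYVE26 stay under 2.07 TPM.

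The members differed in transcript make-up. AP5B1 had 1 annotated transcript, AP5B1-201 (4811 bases, protein coding), which held all its reads. AP5S1 had 5, all protein coding. AP5M1 had 9, of which 8 drew reads, AP5Z1 had 18 (17 with reads), SPG11 had 25 (20 with reads) and ZFYVE26 had 11 (8 with reads). Coding transcripts held most reads of AP5M1 (87.0% to 89.8% over the 6 libraries), SPG11 (90.1% to 95.3%) and ZFYVE26 (69.9% to 86.8%). AP5Z1 was the exception. Its coding transcripts held 21.6% to 28.2% of its reads, transcripts annotated as retaining an intron 32.7% to 41.7%, and those annotated as targets of nonsense-mediated decay 28.2% to 39.9%.

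The share of a gene's TPM held by its most abundant transcript was tested for the 5 genes with several transcripts. The test was an exact permutation test over the 6 libraries (two-sided). The most abundant transcript was the one with the highest mean TPM over the 6 libraries, so 1 group alone can decide the pick. The smallest p that 3 libraries against 3 allow is 0.1. AP5M1-202 held 31.5 ± 5.12% in the double knockout and 30.1 ± 4.36% in the JUN knockout (exact p = 0.7), and AP5S1-203 held 49.2 ± 7.31% in the double knockout and 44.6 ± 13.3% in the JUN knockout (exact p = 0.7). SPG11-201 held 23.7 ± 2.33% in the double knockout and 24.6 ± 6.22% in the JUN knockout (exact p = 0.8). AP5Z1-218, a decay target, held 20.4 ± 3.65% in the double knockout and 16.5 ± 4.11% in the JUN knockout (exact p = 0.4). These 4 differences, each with an adjusted p of 0.8 over the 5 genes by the exact test, were within the spread between libraries.

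ZFYVE26 was the 1 gene whose groups did not overlap in this measure, and the difference rests on few reads. ZFYVE26-208, a fragment of 354 bases annotated as retaining an intron, held 51.7%, 48.9% and 57.2% of the gene's TPM in the double knockout, against 0%, 33.6% and 0% in the JUN knockout (exact permutation p = 0.1, adjusted over the 5 genes 0.5). This transcript ranked first by mean TPM only through the double knockout, where it was at 2.89, 2.34 and 3.43 TPM. In the JUN knockout it was at 0, 1.12 and 0 TPM, against 1.44, 0.973 and 1.27 TPM for ZFYVE26-201. Its share was thus picked through the group where it is high, so the lack of overlap and the p are no support. ZFYVE26-208 had 8.62, 7.13 and 12.1 estimated reads in the double knockout, against 0, 3.85 and 0 in the JUN knockout. The TPM of ZFYVE26 over all transcripts was therefore 5.59, 4.79 and 5.996 in the double knockout, against 2.39, 3.34 and 1.82 in the JUN knockout, while its coding TPM overlapped at 1.64, 1.89 and 1.58 TPM in the double knockout against 1.72, 1.39 and 1.52 TPM in the JUN knockout. With an offset for transcript length, edgeR gave ZFYVE26 a log2 fold change of 1.12 (adjusted p = 0.769).

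AP5Z1 also read differently on the TPM scale. Over all its transcripts it was at 13.5, 17.1 and 16.2 TPM in the double knockout, against 20.6, 18.0 and 19.6 TPM in the JUN knockout, without overlap, though its CPM overlapped. With the length offset its log2 fold change was −0.32 (edgeR adjusted p = 0.852), and over coding transcripts alone it was 0.09 (adjusted p = 0.994). AP5S1-201 had 0, 0 and 98.7 estimated reads in the double knockout and 135, 84.6 and 20.6 in the JUN knockout, so Salmon's split between AP5S1 transcripts varied within each group. SPG11-210 had 0, 174 and 194 reads in the double knockout and was listed at 0 in each JUN knockout library. These 2 transcripts were named after their values were seen.

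The neighbourhood of AP5B1 on chromosome 11 was examined for genes starting within 100 kb. Among 9 such genes, 6 could be tested, and none had groups that did not overlap, beside 12.3% of all tested genes, a share at which 0 of 6 is no result about these genes. KAT5, a histone acetyltransferase, was at 54.8, 50.0 and 50.9 CPM in the double knockout, against 43.9, 53.1 and 53.9 CPM in the JUN knockout (log2 fold change 0.05, SE 0.10, edgeR adjusted p = 0.982). RNASEH2C, a subunit of a nuclease that cuts RNA paired with DNA, had a log2 fold change of 0.11 (SE 0.21), and MUS81, a DNA repair endonuclease, one of −0.09 (SE 0.10). CFL1, which encodes the actin-severing protein cofilin, was at 666 ± 122 CPM in the double knockout and 740 ± 172 CPM in the JUN knockout (SD, n = 3 each), with a log2 fold change of −0.15 (SE 0.20). The weakly expressed EFEMP2, an extracellular matrix gene, and CTSW, a cathepsin of cytotoxic lymphocytes, had log2 fold changes of 0.14 (SE 0.22) and 0.60 (SE 0.49). OVOL1, which starts closest to AP5B1 at 6220 bases, had too few reads to be tested.

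**Figure D3:**
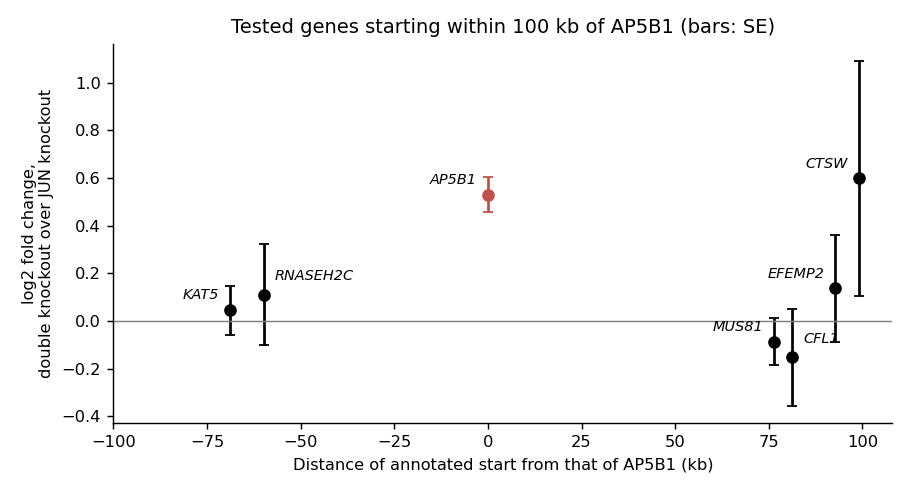
Log2 fold change, ATF3/JUN double knockout over JUN knockout (vertical axis), against the distance in kb of each gene's annotated start from that of AP5B1 (horizontal axis), for AP5B1 (red) and the 6 tested neighbours (black); bars are SE. AP5B1 is at 0.53, and CTSW at 0.60 has a bar of 0.49.

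The other adaptor complexes gave a comparison over related machinery. The lists were chosen with earlier results of these data known. Of 23 tested subunits of AP-1 to AP-4, with the AP-4 partner tepsin, none passed the test, 2 had groups that did not overlap and 1 had an unadjusted p under 0.05, beside 12.3% and 5.81% of all tested genes. Their log2 fold changes ran from −0.62 to 0.12 with a median of −0.02, and 1 was larger in size than that of AP5B1. That one, AP1S3, a small chain of AP-1, had only 0.563, 0.606 and 0.53 CPM in the double knockout, against 1.07, 1.12 and 0.423 CPM in the JUN knockout (edgeR adjusted p = 0.919).

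Over all 12954 tested genes, 6572 were above 0, the background for the counts by list below. In the AP-1 adaptor, which sorts cargo between the Golgi and endosomes, 0 of 7 tested subunits were above 0 (median −0.09). Its most abundant subunit AP1M1 was at 123 ± 4.67 CPM in the double knockout and 131 ± 2.24 CPM in the JUN knockout (SD, n = 3 each; log2 fold change −0.09, edgeR adjusted p = 0.942). In AP-2, the adaptor of endocytosis, 2 of 5 were above 0 (median −0.02), with AP2S1 at −0.18 and AP2B1 at 0.12. In AP-3, which sorts proteins to lysosome-related organelles, 5 of 6 were above 0 (median 0.06), with AP3S1 at 0.03 and AP3S2 at 0.12. In AP-4 and tepsin, 3 of 5 were above 0 (median 0.03). AP4B1, the beta subunit of AP-4, had the lowest p of these and lay below 0, at 30.4, 30.3 and 30.6 CPM in the double knockout, against 35.7, 36.6 and 36.6 CPM in the JUN knockout. The groups did not overlap, yet it did not pass (log2 fold change −0.26, SE 0.08, edgeR adjusted p = 0.789).

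**Figure D4:**
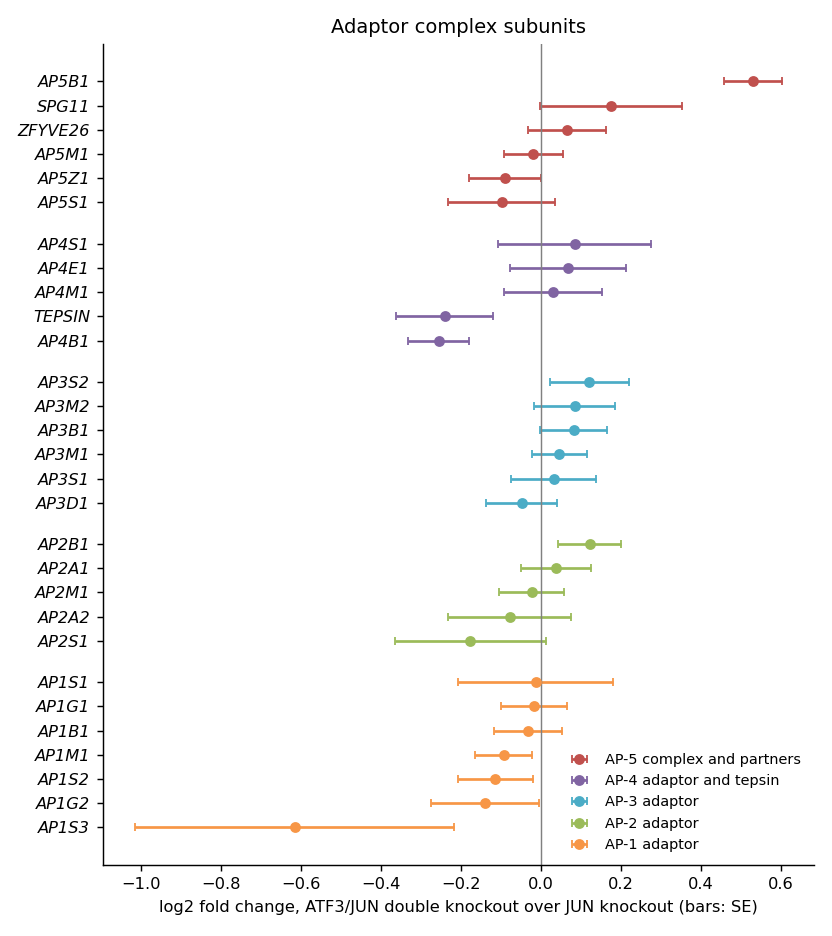
Log2 fold change, ATF3/JUN double knockout over JUN knockout (horizontal axis, bars are SE), of the 6 AP-5 members and the 23 tested subunits of AP-1 to AP-4 with tepsin (rows, coloured by complex). AP5B1 lies at 0.53, and the highest of the other complexes' subunits lies at 0.12.

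The machinery around AP-5 likewise had no member past the test, which called 0% of all tested genes. Groups did not overlap in 3 of 6 clathrin and GGA genes, 2 of 10 retromer genes and 4 of 14 retriever and CCC genes. They did not overlap in 1 of 8 tether genes and 1 of 6 class III PI 3-kinase genes, beside 12.3% of all tested genes. Whether these counts differ from that share was not tested. Clathrin and the GGA adaptors had 2 of 6 above 0 (median −0.10), with the light chain CLTA at −0.03 and GGA3 at −0.17 in log2 fold change. Retromer and its sorting nexins, which recycle cargo from early endosomes, had 4 of 10 above 0 (median −0.01), with SNX3 at −0.004 and VPS35, the retromer backbone, at 0.09. Retriever and the CCC complex, another recycling route, had 4 of 14 above 0 (median −0.07), with COMMD6 at 0.18 and COMMD10 at −0.26. The HOPS and CORVET tethers, which join endosomes with lysosomes, had 5 of 8 above 0 (median 0.04), with VPS41 at 0.06 and the core subunit VPS16 at −0.24. The class III PI 3-kinase, which makes the lipid that ZFYVE26 binds, had 2 of 6 above 0 (median −0.05), with BECN1 at −0.03 and UVRAG at 0.14.

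Proteins retrieved from late endosomes to the Golgi had 4 of 5 above 0 (median 0.20), with the mannose phosphate receptor M6PR at 189 ± 12.5 CPM in the double knockout and 173 ± 21.5 CPM in the JUN knockout (SD, n = 3 each; log2 fold change 0.12, edgeR adjusted p = 0.953). GOLM1, a Golgi membrane protein, was scarce at 1.57, 3.18 and 1.77 CPM in the double knockout against 1.69, 1.22 and 1.46 CPM in the JUN knockout, with double knockout replicate 2 well above the rest (log2 fold change 0.57, SE 0.33, edgeR adjusted p = 0.909). Genes of lysosome reformation after autophagy had 3 of 6 tested above 0 (median −0.005), with the small GTPase RAB7A at 0.06 and the kinesin KIF5B at 0.16. Lysosome genes and their MiT/TFE regulators had 18 of 26 above 0 (median 0.07), beside 6572 of all 12954 tested genes. Of these lysosome and regulator genes, 6 had an unadjusted p under 0.05, 5 of them higher and 1 lower in the double knockout. That stands beside 5.81% of all tested genes, and none of the 26 passed after adjustment. Groups did not overlap in 8 of the 26, in 1 of 5 retrieved proteins and in 0 of 6 reformation genes. Over all tested genes they did not overlap in 12.3%, and whether these counts differ from the shares was not tested. GAA, the lysosomal enzyme that breaks down glycogen, had the lowest p of the lysosome and regulator genes. It was at 36.5, 36.2 and 35.9 CPM in the double knockout, against 26.9, 29.1 and 28.3 CPM in the JUN knockout. Its groups did not overlap (log2 fold change 0.36, SE 0.08, edgeR adjusted p = 0.674). CTSB, the most abundant gene of that list, was at 157 ± 12.6 CPM in the double knockout and 158 ± 26.4 CPM in the JUN knockout (SD, n = 3 each).

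Profiles over the 6 libraries were compared with that of AP5B1 by the root mean square difference of mean-centred log2 CPM, among 11388 other named genes whose mean was 1 CPM or more. The 5 nearest were ZNF583, a zinc finger gene, at a difference of 0.0569, SLC38A10, of an amino acid transporter family, at 0.0634, SEMA4B, a membrane semaphorin, at 0.0753, MYC, a growth-promoting transcription factor, at 0.0774, and PTDSS2, which makes phosphatidylserine, at 0.0802. All 5 were higher in each double knockout library than in any JUN knockout library, which the likeness to AP5B1 brings with it. PTDSS2, for instance, was at 29.99, 24.6 and 26.4 CPM in the double knockout, against 17.6, 17.9 and 18.8 CPM in the JUN knockout. The AP-5 partners were not among the nearest and lay on both sides of the middle of this ranking. ZFYVE26 came 2229th with a difference of 0.2498, AP5M1 4069th, SPG11 4552nd, AP5Z1 6198th and AP5S1 7257th.

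**Figure D5:**
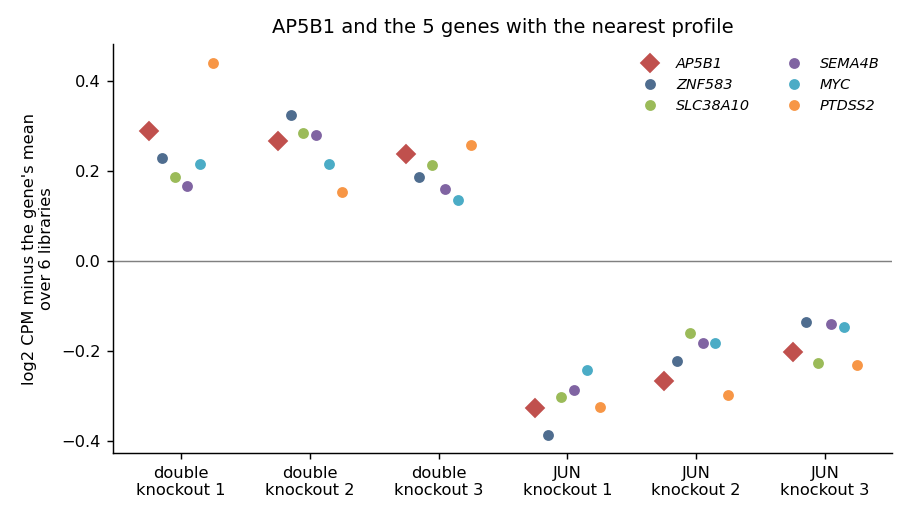
Log2 CPM minus each gene's mean over the 6 libraries (vertical axis) in the 3 ATF3/JUN double knockout and the 3 JUN knockout libraries (horizontal axis), for AP5B1 (red diamonds) and the 5 genes with the nearest profile (circles). All 6 genes lie above 0 in the double knockout libraries and below 0 in the JUN knockout libraries.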

How the data were processed

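RNA-seq of 6 EoL-1 libraries was analysed. FastQC 0.11.9, Salmon 1.6.0 and the build hg38 are named in the submitters' processing notes, with no further settings. For each of 177456 transcripts the deposited files give Salmon's estimated count, its TPM and its length, per the file headers. Of these, 167027 (94.1%) matched GENCODE release 29 by identifier, and the rest held 3.58% to 3.71% of reads. Gene values are sums of these estimated counts, rounded to whole numbers. CPM was computed after TMM scaling.

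edgeR 4.0.16 (R 4.3.3) was run with filterByExpr, robust quasi-likelihood, the group as single term and two-sided tests, and SE is the log2 fold change over the root of F. DESeq2 1.42.0, limma 3.58.1 (voom) and other settings were alternatives. The fit was tested on simulated data. The closest pair of libraries had a chi-square of 9.4 per gene, far above sampling noise, so all 6 were kept. Same-numbered libraries share a clone code in the file names and were taken as pairs. The correlation of their deviations was 0.33, 0.096 and 0.41 for numbers 1, 2 and 3, less for number 2 than the 0.11 between double knockout replicate 2 and JUN knockout replicate 1.

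The members and lists were chosen with earlier results of these data known. Genes named were the members, ATF3 and JUN, in each list the most abundant by TPM, the lowest p and any past 0.05, tested genes starting within 100 kb of AP5B1, and the 5 nearest in profile. The list entry NEU1 had no match in the gene table. Whether counting used the strand was not stated, so reads of overlapping genes may be mixed.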

Additional observations from a re-analysis of the deposited data

How the results depend on the processing

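The log2 fold change of AP5B1 stayed above 0 in all 17 alternatives, from 0.49 to 0.57, and from 0.50 to 0.56 when 1 library was left out. It was at 0.53 with DESeq2. These values are given with no test, since AP5B1 was picked on this contrast. Its groups did not overlap, so leaving libraries out could hardly turn its direction, and the steady direction is no support. With the replicate block, pairing same-numbered libraries, AP5B1 was at 0.53, edgeR called 0 genes, and no call changed. DESeq2 called 55 genes, limma-voom 4, no low-count filter 1 and leaving out both libraries numbered 3 also 1, against 0 in the main test. No partner passed under any alternative, though their values moved. SPG11 (0.18) was at 0.019 with the transcript length offset. Among fits with 1 library left out it was lowest at 0.060 when that was JUN knockout replicate 3 and highest at 0.36 when it was replicate 1 of that group. In the same fits AP5S1 (−0.10) was lowest at −0.21 when double knockout replicate 3 was left out and highest at −0.015 when replicate 1 of that group was. With 1 library left out AP5Z1 ran from −0.15 to −0.037 and ZFYVE26 from 0.013 to 0.11. AP5M1 turned to 0.071 with the transcript length offset and 0.0017 without both libraries numbered 1, and ran from −0.050 to 0.0031 with 1 library left out. AP5Z1 turned to 0.091 over coding transcripts, and ZFYVE26 to −0.015 without both libraries numbered 2. Leaving out 1 library moved the top-transcript share difference between −1.52 and 3.54 percentage points for AP5M1, −2.70 and 10.3 for AP5S1, and −4.25 and 1.89 for SPG11. Genes near 0 turned too. With the length offset these were AP3S1 (−0.027), AP3S2 (−0.17), SNX3 (0.048), BECN1 (0.019), CTSB (0.058) and KAT5 (−0.030), and over coding transcripts SNX3 (0.0074), BECN1 (0.028) and CTSB (0.018). CTSB was at 0.0086 with the replicate block and 0.0087 with limma-voom. Without both libraries numbered 1, AP3S1 was at −0.017, RAB7A at −0.0044, CTSB at 0.089, KAT5 at −0.084 and RNASEH2C at −0.12, and without both numbered 2, CLTA was at 0.013, SNX3 at 0.025, VPS41 at −0.049, CFL1 at 0.019 and JUN at 0.058. With 1 library left out the ranges crossing 0 were −0.052 to 0.11 for AP3S1, −0.077 to 0.018 for CLTA, −0.035 to 0.033 for SNX3, −0.022 to 0.12 for VPS41, −0.11 to 0.024 for BECN1, −0.0023 to 0.098 for RAB7A, −0.077 to 0.15 for CTSB, −0.043 to 0.099 for KAT5 and −0.092 to 0.30 for RNASEH2C. The other genes named by the rule given above kept their direction. Genes named outside that rule, such as TPP1, PSAP, LAMP2, MCOLN1 and TFEB below, were not followed through the alternatives. The median of all genes moved by at most 0.03 under any setting. With 3 libraries a group, small differences were not detectable. After adjustment the main test called 0 genes, also where an interval lay away from 0. An example is GAA, at a log2 fold change of 0.36 (95% interval 0.18 to 0.55). A partner that did not pass may therefore still differ between the groups.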

Other observations

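Among the lysosome genes, TPP1, PSAP and LAMP2 were also higher in each double knockout library than in any JUN knockout library at an unadjusted p under 0.05, and the genes named here were chosen after their values were seen. TPP1, a lysosomal peptidase, was at 145, 162 and 159 CPM in the double knockout, against 104, 119 and 125 CPM in the JUN knockout (log2 fold change 0.42, SE 0.10, edgeR adjusted p = 0.674). PSAP, the precursor of the saposins that help degrade sphingolipids, was at 166, 151 and 142 CPM in the double knockout, against 133, 122 and 129 CPM in the JUN knockout (0.26, SE 0.09). LAMP2, a protein of the lysosome membrane, was at 146, 137 and 122 CPM in the double knockout, against 115, 113 and 112 CPM in the JUN knockout (0.25, SE 0.09). MCOLN1, the lysosomal calcium channel, went the other way at 9.57, 10.1 and 11.9 CPM in the double knockout, against 12.4, 16.1 and 13.1 CPM in the JUN knockout (−0.40, SE 0.15, edgeR adjusted p = 0.852). None of these passed after adjustment, and TFEB, a main regulator of lysosome genes, had a log2 fold change of 0.001 (SE 0.14).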
